A study of Arabidopsis thaliana with 18 samples.

Results

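The genes described here are the nuclear genes for the light-harvesting antenna and for the protein subunits of the photosynthetic electron transport chain of Arabidopsis thaliana. They were taken by locus identifier from a list of loci, and all 53 listed loci were found among the 24953 genes of the expression tables. Of these, 21 encode antenna proteins (6 LHCA genes of photosystem I and 15 LHCB genes of photosystem II). The other 32 encode 12 photosystem I subunits, 11 photosystem II subunits, 6 electron carriers and 3 subunits of the ATP synthase. RNA-seq had been carried out on whole Columbia (Col-0) seedlings of the genotypes SOB3-D and sob3-6, with 3 libraries per genotype at ZT4, ZT9 and ZT24, 18 libraries in all. ZT is the number of hours after lights-on. SOB3-D overexpresses SOB3, an AT-hook motif nuclear localized (AHL) DNA-binding protein that restrains hypocotyl growth, and sob3-6 carries the same overexpressing copy with a missense change in its AT-hook and acts as a dominant-negative allele over several AHL proteins. Both genotypes had been grown at 22°C with 8 h of white light and 16 h of darkness on medium with 1% sucrose, and were 5 days old at ZT4 (in the light period) and ZT9 (early night) and 6 days old at ZT24 (end of the night). Wild-type libraries were not analysed here, so each genotype difference is sob3-6 relative to SOB3-D.

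Light-harvesting proteins bind chlorophyll a and b in the thylakoid membrane and pass excitation energy to the reaction centres of the photosystems. LHCB1, LHCB2 and LHCB3 proteins form the trimeric major antenna of photosystem II. LHCB4, LHCB5 and LHCB6 are the minor antenna that link the trimers to the core, and the LHCA proteins form a belt around photosystem I. The reaction centre proteins are made in the chloroplast, whereas the antenna, the oxygen-evolving proteins, many peripheral subunits, plastocyanin, ferredoxin and its reductase are encoded in the nucleus and imported. LHC transcripts are a classical example of transcripts that are induced by light and gated by the circadian clock.

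The promoters of 6 members are shown as examples, so that the letters can be read beside the values. LHCB2.1, LHCB2.2, LHCB2.3, LHCB4.2 and PSAD2 are members whose transcripts were far more abundant in sob3-6 than in SOB3-D at ZT9, and FNR2 is a member that went the other way. LHCB1.4 was also far more abundant in sob3-6 at ZT9, and its window, which held 2 CCA1 sites, is not shown. Each window holds the 250 bases before and the 50 bases from the annotated gene start in RefSeq's TAIR10.1 assembly, written 5′ to 3′ on the gene's own strand. Capitals mark matches, on either strand, to the G-box (CACGTG), the I-box (GATAAG), the CCA1 site (AANAATCT), the evening element (AAAATATCT) and a TCP-like site (GGNCCA), and touching matches run together.
LHCB2.1 (chr2:1824431-1824730, minus strand): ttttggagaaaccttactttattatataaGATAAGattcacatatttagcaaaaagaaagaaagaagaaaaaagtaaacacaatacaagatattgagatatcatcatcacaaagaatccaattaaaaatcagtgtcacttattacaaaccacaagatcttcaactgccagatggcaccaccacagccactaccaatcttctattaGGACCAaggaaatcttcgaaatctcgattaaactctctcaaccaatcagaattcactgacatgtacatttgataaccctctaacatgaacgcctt
LHCB2.2 (chr2:1800423-1800722, minus strand): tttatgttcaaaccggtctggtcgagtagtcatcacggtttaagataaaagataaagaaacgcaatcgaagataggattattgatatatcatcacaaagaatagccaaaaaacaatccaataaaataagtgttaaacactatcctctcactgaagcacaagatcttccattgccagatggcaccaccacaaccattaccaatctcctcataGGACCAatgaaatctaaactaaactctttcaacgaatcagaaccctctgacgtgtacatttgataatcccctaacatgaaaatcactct
LHCB2.3 (chr3:10255656-10255955, plus strand): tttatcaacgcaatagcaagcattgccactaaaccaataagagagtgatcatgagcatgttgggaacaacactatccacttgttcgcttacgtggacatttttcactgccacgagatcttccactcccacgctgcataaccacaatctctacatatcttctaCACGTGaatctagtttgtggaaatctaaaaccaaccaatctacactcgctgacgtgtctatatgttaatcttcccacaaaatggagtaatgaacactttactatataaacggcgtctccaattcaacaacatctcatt
LHCB4.2 (chr3:2717307-2717606, plus strand): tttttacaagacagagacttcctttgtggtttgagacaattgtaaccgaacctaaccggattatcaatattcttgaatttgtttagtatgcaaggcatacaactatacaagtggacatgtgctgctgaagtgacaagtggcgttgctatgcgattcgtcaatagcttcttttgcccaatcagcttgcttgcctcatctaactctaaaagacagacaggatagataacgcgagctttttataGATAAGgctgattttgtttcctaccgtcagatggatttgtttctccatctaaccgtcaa
PSAD2 (chr1:754213-754512, minus strand): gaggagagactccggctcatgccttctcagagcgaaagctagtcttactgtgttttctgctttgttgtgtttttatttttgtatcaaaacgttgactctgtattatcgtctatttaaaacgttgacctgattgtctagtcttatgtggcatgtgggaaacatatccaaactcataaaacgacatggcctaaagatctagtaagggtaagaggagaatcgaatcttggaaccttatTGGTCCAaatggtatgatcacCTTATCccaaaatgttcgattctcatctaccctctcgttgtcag
FNR2 (chr1:6942375-6942674, plus strand): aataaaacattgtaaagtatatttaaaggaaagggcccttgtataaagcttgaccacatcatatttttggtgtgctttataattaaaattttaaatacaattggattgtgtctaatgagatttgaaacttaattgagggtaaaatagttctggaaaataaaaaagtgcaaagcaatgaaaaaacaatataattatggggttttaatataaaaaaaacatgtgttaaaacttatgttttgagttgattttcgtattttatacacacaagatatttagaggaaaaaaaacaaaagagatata

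The LHCB2.3 window held a G-box, the LHCB2.1, LHCB4.2 and PSAD2 windows each held an I-box, and the FNR2 window held no match to the 5 motifs. Of the other members called lower in sob3-6 at ZT9, PETC held 2 I-boxes and 2 TCP-like sites, LHCA5 held an evening element, and PSBS held no match. LHCB3, LHCA2 and LHCA3, called higher at ZT9, also held no match. The G-box was found in the windows of 5 of 21 antenna genes (23.8%) and 12 of 32 subunit genes (37.5%), beside 7.68% of all 27443 promoters of this length. The I-box was found in 6 antenna genes (28.6%) and 18 subunit genes (56.2%), beside 14.6% of all promoters. The CCA1 site was found in 6 antenna genes (28.6%) and 5 subunit genes (15.6%), beside 15.9% of all promoters. The TCP-like site was found in 7 antenna genes (33.3%) and 9 subunit genes (28.1%), beside 25.7%. The evening element was found in 1 antenna gene (4.76%) and 1 subunit gene (3.12%), beside 2.82%. The windows of LHCB2.1 and LHCB2.2 both held the TCP-like site and differed in the I-box, which was matched in LHCB2.1. These matches describe letters only.

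The 18 libraries held between 6012747 and 11076919 mapped reads (median 8199501.5), so that 1 read was worth between 0.0903 and 0.166 CPM, the unit of the tables (reads scaled to the mapped reads of the library). Reads had been counted on every transcript that they matched equally well, and the CPM values of a library therefore summed to between 1546178 and 1573550. SOB3 itself stood at 133 to 235 CPM in the SOB3-D libraries and at 227 to 331 CPM in the sob3-6 libraries, and both genotypes carry the overexpressing copy, so its level does not check the labels. In the sob3-6 ZT4 group replicate 3 was the highest library for 52 of the 53 members, and replicate 3 was the highest for 50 members in the SOB3-D ZT9 group and for 47 in the sob3-6 ZT9 group. Because the libraries come from pooled whole seedlings, fewer photosynthetic cells and less RNA per cell cannot be told apart.

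Levels set against transcript length, as CPM per kilobase of the longest annotated transcript averaged over the 18 libraries, were highest for the LHCB1 genes. LHCB1.3 stood at 14670 CPM per kilobase, LHCB1.5 at 7548, LHCB1.1 at 7076, LHCB1.2 at 4945 and LHCB1.4 at 3532. These LHCB1 paralogs shared between 2.89% and 8.29% of their read-length stretches (84 bases) with another LHCB1 gene. LHCB2.1 shared 13.4% with LHCB2.2 and LHCB2.2 shared 16.7% with LHCB2.1, whereas LHCB2.3, LHCB4.2, PSAD2 and FNR2 shared none. Among the subunits the highest in CPM were PSBO1 (4112 CPM on average), the manganese-stabilizing protein of the oxygen-evolving complex, PSAF (2793 CPM), the plastocyanin-docking subunit of photosystem I, and PSBP1 (2771 CPM). LHCB4.3 and LHCB7 were the lowest members, at 4.50 and 8.49 CPM on average, and all 53 members passed the filter of a mean of 0.5 CPM.

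Early in the night, at ZT9, sob3-6 was compared with SOB3-D. At this time 13 of 21 antenna genes were higher in sob3-6 and 1 was lower, by limma with Benjamini-Hochberg adjustment over all transcripts. Of the 32 subunit genes 5 were higher and 3 were lower, all calls being at an adjusted p under 0.05. Whether these differences are direct effects of AHL proteins was not tested. The share of all nuclear genes called was 10% (6.00% higher and 4.03% lower), beside 22 of 53 members. The median log2 difference was 0.60 for the antenna and 0.14 for the subunits, beside 0.03 for all genes. The libraries of the genotypes did not overlap for 19 of 21 antenna genes and for 16 of 32 subunit genes. The share of all genes without overlap was not counted, so these counts have no background beside them.

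**Figure D1:**
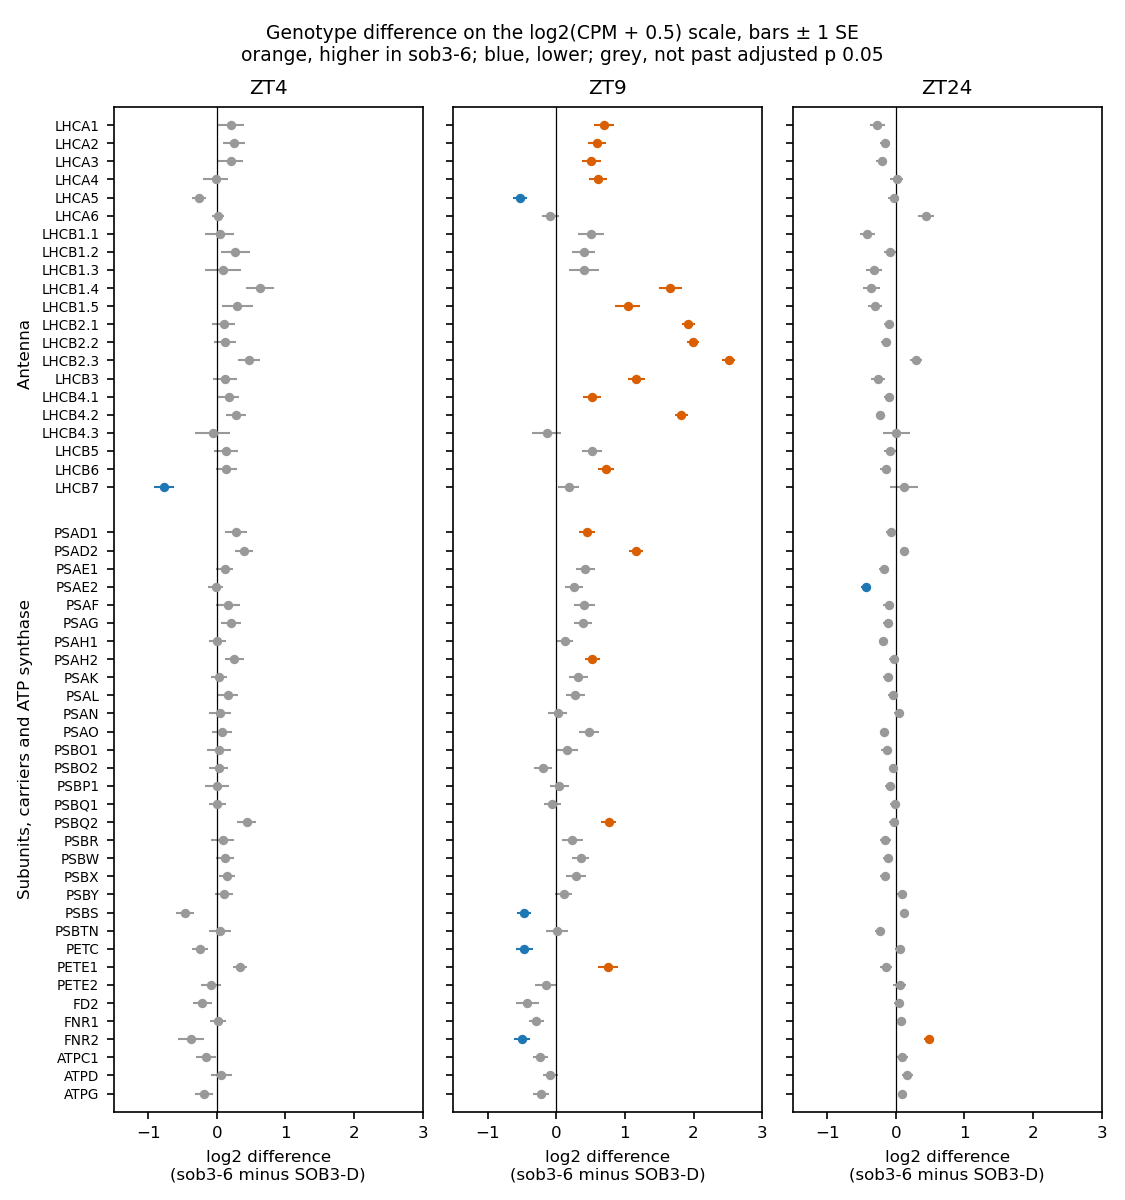
Log2 difference between sob3-6 and SOB3-D for each of the 53 members at ZT4, ZT9 and ZT24 on the log2(CPM + 0.5) scale, with bars of ± 1 standard error (3 libraries per genotype). Orange and blue points are members higher or lower in sob3-6 at an adjusted p under 0.05. At ZT9 the LHCB2 genes and LHCB4.2 lie farthest to the right, and at ZT4 and ZT24 most members lie near 0.

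The LHCB2 genes, which encode a subunit of the major antenna that is phosphorylated during state transitions, differed most. LHCB2.3 (AT3G27690) stood at 32.6, 35.9 and 34.5 CPM in the 3 SOB3-D libraries at ZT9, and at 188, 220 and 188 CPM in the sob3-6 libraries. The lowest sob3-6 library was thus above the highest SOB3-D library by far more than the spread within either group, a difference of 2.51 on the log2 scale (SE 0.09, 5.71-fold, adjusted p = 5.16e-06 by limma). LHCB2.1 (AT2G05100) stood at 272, 269 and 283 CPM in SOB3-D and at 1041, 1118 and 974 CPM in sob3-6, a log2 difference of 1.92 (SE 0.09, 3.79-fold, adjusted p = 2.82e-05 by limma). LHCB2.2 (AT2G05070) stood at 274, 272 and 276 CPM in SOB3-D and at 1080, 1189 and 1012 CPM in sob3-6, a log2 difference of 1.99 (SE 0.09, 3.98-fold). Reads in the stretches that LHCB2.1 and LHCB2.2 share were counted for both, so these members are not separate measurements, whereas LHCB2.3 has no such stretch.

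LHCB4.2 (AT3G08940), a minor antenna gene, stood at 286, 291 and 332 CPM in SOB3-D and at 1046, 1062 and 1105 CPM in sob3-6 at ZT9, a log2 difference of 1.82 (SE 0.09, 3.54-fold, adjusted p = 4.86e-05 by limma). Its paralog LHCB4.1 was nearer between genotypes, at 1550, 1479 and 1769 CPM against 2121, 2193 and 2548 CPM, a log2 difference of 0.52 (SE 0.13). The third paralog, LHCB4.3, was not called (log2 difference -0.14, SE 0.21) and stood below 7 CPM in every library. The differences between these paralogs were not themselves tested.

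Of the 5 LHCB1 genes 2 were called at ZT9, and the differences between these paralogs were not themselves tested. LHCB1.4 (AT2G34430) stood at 1651, 1771 and 2141 CPM in SOB3-D and at 5214, 5708 and 6705 CPM in sob3-6 at ZT9, a log2 difference of 1.66 (SE 0.16, 3.17-fold, adjusted p = 0.000777 by limma). LHCB1.5, its neighbour on chromosome 2, stood at 3937, 4124 and 5082 CPM against 8244, 8788 and 9962 CPM, a log2 difference of 1.04 (SE 0.18, 2.06-fold, adjusted p = 0.00885 by limma). LHCB1.1, LHCB1.2 and LHCB1.3 lie next to each other on chromosome 1 (coordinates in TAIR10.1 from chr1:10472280 to chr1:10479114). Their log2 differences were 0.51 (SE 0.18), 0.40 (SE 0.17) and 0.40 (SE 0.22), with every sob3-6 library above every SOB3-D library, and none of them was called in the fit without a block, while LHCB1.1 was called with replicate number as a block (adjusted p = 0.0368 by limma). LHCB1.3, the most abundant member, stood at 11802, 11164 and 14215 CPM in SOB3-D and at 14951, 15853 and 18237 CPM in sob3-6. LHCB1.2 stood at 4297, 4145 and 5103 CPM in SOB3-D and 5346, 5872 and 6645 CPM in sob3-6. LHCB1.1 stood at 4355, 4220 and 5597 CPM against 5964, 6601 and 7506 CPM.

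LHCB3, a subunit of the trimeric antenna, stood at 1339, 1322 and 1505 CPM in SOB3-D and at 2877, 3115 and 3360 CPM in sob3-6 at ZT9, a log2 difference of 1.17 (SE 0.13, 2.24-fold, adjusted p = 0.00117 by limma). LHCB6 stood at 992, 938 and 1110 CPM against 1534, 1698 and 1789 CPM, a log2 difference of 0.72 (SE 0.12, adjusted p = 0.00668 by limma). Of the photosystem I antenna, LHCA1, LHCA2, LHCA3 and LHCA4 were called higher in sob3-6, with log2 differences between 0.51 and 0.69. LHCA5, a low-abundance protein that helps to join photosystem I to the NADH dehydrogenase-like complex, went the other way, at 122, 123 and 125 CPM in SOB3-D and at 73.1, 89.9 and 95.2 CPM in sob3-6. This fall was 0.52 on the log2 scale (SE 0.11, 1.44-fold, adjusted p = 0.0165 by limma), and the groups did not overlap. LHCB5 narrowly missed the threshold (log2 difference 0.52, SE 0.14, adjusted p = 0.0528 by limma), and LHCA6, LHCB4.3 and LHCB7 differed by between -0.14 and 0.18 on the log2 scale without a call.

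Among the photosystem I subunits the paralog pairs were read side by side. PSAD2 (AT1G03130), which encodes the subunit that docks ferredoxin, stood at 289, 281 and 327 CPM in SOB3-D and at 628, 710 and 668 CPM in sob3-6 at ZT9, a log2 difference of 1.16 (SE 0.10, 2.24-fold, adjusted p = 0.000339 by limma). PSAD1, its more abundant paralog, stood at 1325, 1267 and 1475 CPM against 1687, 1905 and 1947 CPM, a log2 difference of 0.45 (SE 0.12, adjusted p = 0.0474 by limma). No read-length stretch was shared by PSAD1 and PSAD2. PSAH2, part of the docking site of the mobile antenna, stood at 416, 418 and 486 CPM in SOB3-D and 565, 661 and 680 CPM in sob3-6 and was called (log2 difference 0.53, SE 0.11). PSAH1 stood at 533, 502 and 629 CPM in SOB3-D and 548, 583 and 682 CPM in sob3-6 and was not (0.12, SE 0.12). PSAE1 stood at 803, 754 and 999 CPM in SOB3-D and 1005, 1135 and 1283.5 CPM in sob3-6. PSAE2 stood at 283, 268 and 351 CPM against 323, 351 and 401 CPM, and neither PSAE gene was called without a block. The differences between paralogs were not themselves tested. PSAF stood at 2219, 2067 and 2641 CPM in SOB3-D and 2714, 2998 and 3453 CPM in sob3-6, without overlap and without a call (log2 difference 0.40, SE 0.15). All 12 photosystem I subunits had a log2 difference above 0, with a median of 0.40, and 3 of them were called.

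Of the 11 photosystem II subunits 1 was called higher and 1 lower. PSBQ2, a subunit of the oxygen-evolving complex, stood at 765, 739 and 842 CPM in SOB3-D and at 1217, 1354 and 1411 CPM in sob3-6 at ZT9, a log2 difference of 0.76 (SE 0.11, 1.70-fold, adjusted p = 0.00392 by limma). PSBQ1 stood at 641, 565 and 662 CPM against 518, 599 and 683 CPM, and the groups overlapped. The abundant PSBO1 stood at 3389, 3107 and 4025 CPM against 3487, 3798 and 4429 CPM, again with overlap, and its paralog PSBO2 stood at 800, 766 and 920 CPM in SOB3-D and 617, 751 and 815 CPM in sob3-6. PSBP1 stood at 2461, 2332 and 2831 CPM in SOB3-D and 2376, 2616 and 2871 CPM in sob3-6 (log2 difference 0.05, SE 0.14). PSBS, the protein that triggers thermal dissipation of excess light, was lower in sob3-6, at 715, 701 and 741 CPM in SOB3-D against 464, 544 and 550 CPM, a fall of 0.47 on the log2 scale (SE 0.10, 1.39-fold, adjusted p = 0.0192 by limma). The median log2 difference of the 11 photosystem II subunits was 0.11.

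Of the 6 electron carriers 1 was called higher and 2 lower. In all, 5 had a log2 difference below 0, with a median of -0.36. FNR2 (AT1G20020), a ferredoxin-NADP+ reductase, stood at 988, 961 and 981 CPM in SOB3-D and at 601, 707 and 774 CPM in sob3-6 at ZT9, a fall of 0.50 on the log2 scale (SE 0.11, 1.42-fold, adjusted p = 0.0248 by limma). PETC, the Rieske iron-sulfur protein of the cytochrome b6f complex, fell by 0.47 on the log2 scale (SE 0.13, 1.38-fold, adjusted p = 0.0480 by limma). FD2, the main leaf ferredoxin (log2 difference -0.42, SE 0.17), and FNR1 (-0.29, SE 0.11) were not called, although their libraries did not overlap. PETE1, the minor plastocyanin gene, was the exception, at 70.5, 76.6 and 100 CPM in SOB3-D against 117, 140 and 160 CPM in sob3-6, a log2 difference of 0.75 (SE 0.15, 1.69-fold, adjusted p = 0.0166 by limma). The major plastocyanin gene PETE2 stood at 1753, 1631 and 2124 CPM in SOB3-D and 1414, 1613 and 1968 CPM in sob3-6, and the groups overlapped. PETE2 (log2 difference -0.15, SE 0.16) and the ATP synthase genes ATPC1, ATPD and ATPG (between -0.23 and -0.09) were not called.

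The count of 22 members at ZT9 leaned on single libraries. It was 9 without SOB3-D replicate 1, 9 without SOB3-D replicate 2 and 10 without sob3-6 replicate 2, and in these 3 fits none of the 4 lower calls remained. LHCB2.1, LHCB2.2, LHCB2.3, LHCB4.2, LHCB1.4, LHCB3, LHCB6, PSAD2 and PSBQ2 were called in all 6 fits that left out a library. Since the genotypes of a replicate set had been grown on the same plates, the fit was also run with replicate number as a block, and 33 members were then called (27 higher and 6 lower, of which 15 and 1 were antenna), beside 16.5% of all genes in that blocked fit (9.49% higher and 6.98% lower). The 11 members gained included LHCB1.1, LHCB5, PSAE1, PSAF, PSAG, PSAK, PSAO and PSBW, all higher, and FD2 and FNR1, both lower.

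The same comparison was made in the light period, at ZT4. LHCB7, a rare antenna protein, was the only one of the 53 members called, at 13.2, 11.9 and 13.8 CPM in SOB3-D and at 6.89, 6.75 and 8.61 CPM in sob3-6. This was a fall of 0.77 on the log2 scale (SE 0.15, 1.71-fold, adjusted p = 0.0152 by limma), beside 6.76% of all genes called (4.29% higher and 2.46% lower). The call was lost in 4 of the 6 fits that left out a library (SOB3-D replicate 2 or 3, or sob3-6 replicate 1 or 2), and 3 members were called without sob3-6 replicate 3. The median log2 difference was 0.13 for the antenna and 0.05 for the subunits, beside 0.04 for all genes. Of the 53 members, 14 had libraries that did not overlap at ZT4, and the share of all genes without overlap was not counted. Higher in sob3-6 among them were LHCB1.4 (0.63, SE 0.21), LHCB2.3 (0.46, SE 0.16), PSAD2 (0.40, SE 0.13) and PSBQ2 (0.44, SE 0.14), with adjusted p between 0.109 and 0.125 by limma. Others were lower, such as LHCA5 (111, 110 and 116 CPM in SOB3-D against 86.8, 88.8 and 106 CPM) and PETC (639, 742 and 680 CPM against 552, 555 and 634 CPM). PSBS stood at 1163, 1262 and 1336 CPM in SOB3-D and at 814, 886 and 1024 CPM in sob3-6 (log2 difference -0.47, SE 0.13, adjusted p = 0.0676 by limma) and was called with the replicate block (adjusted p = 0.0426 by limma), which gave 2 calls among the members, both lower, beside 9.84% of all genes (6.04% higher and 3.80% lower).

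At the end of the night, at ZT24, 2 of 53 members were called, 1 higher and 1 lower, beside 6.76% of all genes (4.91% higher and 1.85% lower). PSAE2, a stromal subunit of photosystem I, stood at 316, 310 and 330 CPM in SOB3-D and at 224, 229 and 255 CPM in sob3-6, a fall of 0.43 on the log2 scale (SE 0.07, 1.35-fold, adjusted p = 0.00689 by limma). Its paralog PSAE1 stood at 1168, 1154 and 1138 CPM against 1058, 989 and 1023 CPM (log2 difference -0.17, SE 0.06) and was not called. FNR2 stood at 121, 127 and 134 CPM in SOB3-D and at 162, 183 and 192 CPM in sob3-6, a log2 difference of 0.48 (SE 0.08, adjusted p = 0.00763 by limma), the reverse of its direction at ZT9. Without SOB3-D replicate 1, 4 members were called.

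With the replicate block, 7 of 21 antenna genes were lower in sob3-6 at ZT24 and 2 were higher. In the unblocked fit 16 of 21 antenna genes had a log2 difference below 0, with a median of -0.14 beside 0.01 for all genes, and none was called (10 at an unadjusted p under 0.05 by limma). With replicate number as a block 12 members were called, 3 higher and 9 lower, beside 13.0% of all genes (8.34% higher and 4.70% lower). The antenna genes then called lower were LHCA1, LHCB1.1, LHCB1.3, LHCB1.4, LHCB1.5, LHCB3 and LHCB4.2, with log2 differences between -0.41 and -0.22, and LHCA6 and LHCB2.3 were called higher (0.44 and 0.29). LHCB1.1, the largest fall among them, stood at 15314, 14896 and 15221 CPM in SOB3-D and at 11654, 11045 and 11392 CPM in sob3-6. DESeq2 called 7 members at ZT24 (1 higher and 6 lower) and edgeR's exact test 7 (2 higher and 5 lower). The shares of all genes called by these tools, or lying under the unadjusted p, were not counted.

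**Figure D2:**
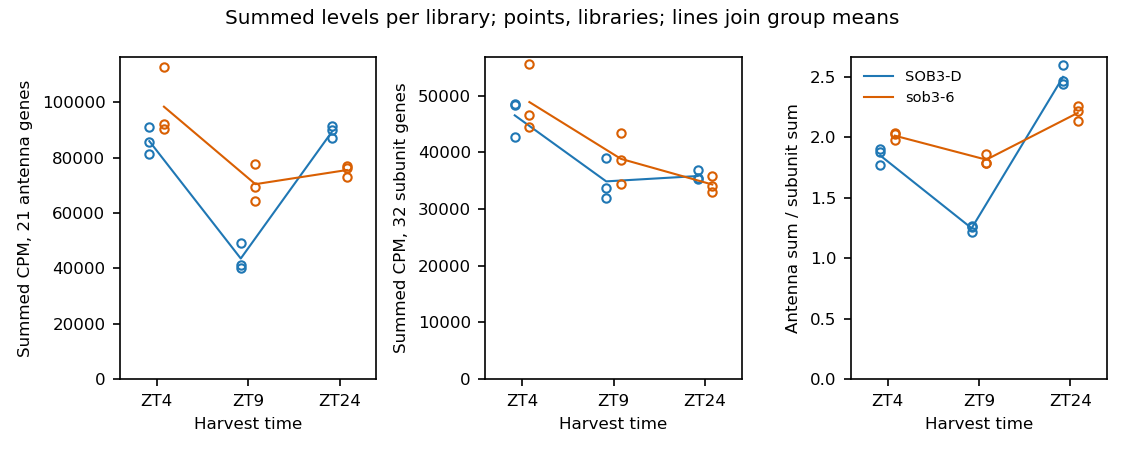
Summed CPM of the 21 antenna genes and of the 32 subunit, carrier and ATP synthase genes, and the ratio of the sums, in each library (points) at ZT4, ZT9 and ZT24, with lines through the group means. The antenna sum of SOB3-D dips at ZT9 to between 40210 and 49339 CPM, below the 64217 to 77733 CPM of sob3-6, while the ranges of the subunit sums overlap at every time.

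Summed over the class, the antenna took 85967 ± 4840 CPM (SD, n = 3) at ZT4, 43559 ± 5026 CPM at ZT9 and 89509 ± 2088 CPM at ZT24 in SOB3-D. In sob3-6 the same sums were 98408 ± 12430, 70417 ± 6827 and 75523 ± 2070 CPM. At ZT4 the groups overlapped, although sob3-6 was higher in 3 of 3 pairs of libraries from the same plates. At ZT9 every sob3-6 library was above every SOB3-D library, and at ZT24 every one was below. The log2 ratio of the antenna sums at ZT24 was -0.245, and it was -0.122 without the members that share read-length stretches with another gene, which include LHCB1.1 and LHCB1.3. The subunit sums were 46515 ± 3283, 34870 ± 3660 and 35812 ± 891 CPM in SOB3-D and 48857 ± 5954, 38848 ± 4521 and 34316 ± 1405 CPM in sob3-6. Their ranges overlapped at each time, while by plate sob3-6 was higher in 2 of 3 pairs at ZT4, higher in 3 of 3 at ZT9 and lower in 3 of 3 at ZT24. The antenna sum per subunit sum was 1.25 ± 0.02 in SOB3-D and 1.82 ± 0.04 in sob3-6 at ZT9, against 1.85 ± 0.07 and 2.01 ± 0.03 at ZT4 and 2.50 ± 0.08 and 2.2 ± 0.06 at ZT24.

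In SOB3-D most antenna genes fell from ZT4 to ZT9 and rose again from ZT9 to ZT24, and 12 of 21 were still lower at ZT24 than at ZT4. From ZT4 to ZT9, 39 of 53 members fell and 1 rose in SOB3-D by limma, beside 33.8% of all genes called (21.3% higher and 12.5% lower), and 18 of the 39 were antenna genes. From ZT9 to ZT24, 23 rose and 8 fell, beside 37.3% of all genes (18.3% higher and 19.0% lower), and 16 of the 23 were antenna genes. At ZT24 compared with ZT4, 3 members were higher and 35 lower, beside 37.1% of all genes (22.0% higher and 15.1% lower). The group mean was lowest at ZT9 for 18 of 21 antenna genes and 20 of 32 subunit genes.

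**Figure D3:**
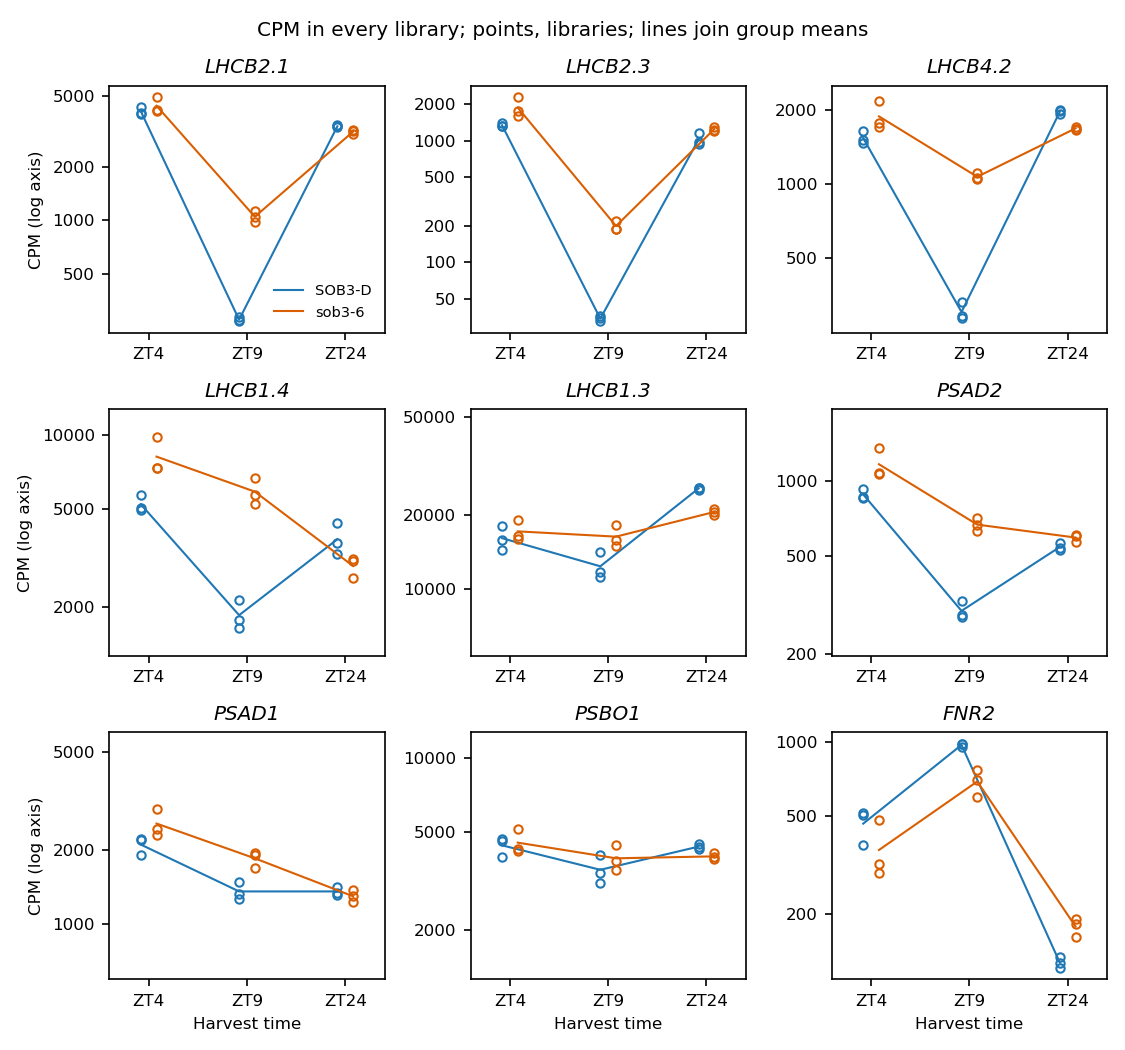
CPM on a log axis in every library at ZT4, ZT9 and ZT24 for 9 members, with SOB3-D in blue, sob3-6 in orange and lines through the group means (3 libraries per point set). LHCB2.1, LHCB2.3 and LHCB4.2 dip at ZT9 in both genotypes and deeper in SOB3-D, PSBO1 stays between 3107 and 5145 CPM, and FNR2 is highest at ZT9.

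The deepest dip was that of LHCB2.3. In SOB3-D it stood at 1316, 1314 and 1402 CPM at ZT4 and at 1159, 934 and 983 CPM at ZT24, so that the ZT9 mean was 2.56% of the ZT4 mean and the ZT24 mean was 29.9 times the ZT9 mean. In sob3-6 it stood at 1586, 1756 and 2286 CPM at ZT4 and at 1312, 1208 and 1232 CPM at ZT24, and the ZT9 mean was 10.6% of the ZT4 mean. Both genotypes thus had the dip, and ZT9 lay below ZT4 and ZT24 in every library. For LHCB2.1 the ZT9 mean was 6.69% of the ZT4 mean in SOB3-D and 23.7% in sob3-6, and for LHCB4.2 it was 19.7% and 56.9%. LHCB4.2 then rose past its daytime level in SOB3-D, to 1992, 1985 and 1920 CPM at ZT24 from 1636, 1512 and 1462 CPM at ZT4.

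In sob3-6, 10 antenna and 17 subunit genes fell from ZT4 to ZT9. From ZT9 to ZT24, 6 antenna genes rose and 4 fell (median log2 difference -0.07), whereas 1 subunit gene rose and 10 fell (median -0.13). From ZT4 to ZT9, 27 members fell and 1 rose, beside 25.7% of all genes (16.4% higher and 9.34% lower), and 26 of the 27 were also called lower in SOB3-D. From ZT9 to ZT24, 7 rose and 14 fell, beside 26.0% of all genes (12.3% higher and 13.6% lower), and at ZT24 compared with ZT4, 40 were lower by limma, beside 25.4% of all genes (14.9% higher and 10.4% lower). The group mean was lowest at ZT24 for 12 of 21 antenna genes and 21 of 32 subunit genes. LHCB1.4 stood at 7349, 7351 and 9744 CPM at ZT4 and at 3120, 2624 and 3062 CPM at ZT24 in sob3-6, whereas in SOB3-D it went from 4963, 5676 and 5025 CPM at ZT4 to 4391, 3269 and 3643 CPM at ZT24.

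As a share of ZT4, the ZT9 level of the antenna had a median of 48.3% in SOB3-D and 74.0% in sob3-6, with ranges of 2.56% to 111% and 10.6% to 104%. For the subunits the medians were 74.3% and 79.1%. At ZT24 the medians were 77.9% and 68.2% for the antenna and 72.9% and 69.9% for the subunits. The genotypes therefore stood furthest apart in the antenna at ZT9, and the ZT4 and ZT9 values of a genotype come from different seedlings.

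**Figure D4:**
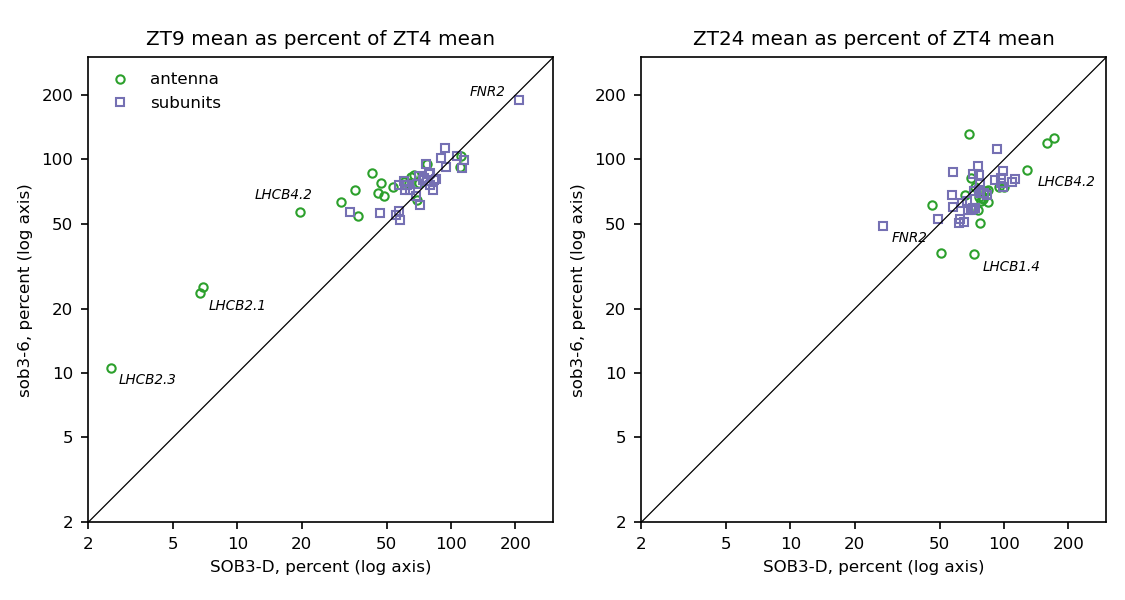
ZT9 (left) and ZT24 (right) group means as a percentage of the ZT4 mean for each member, SOB3-D on the horizontal and sob3-6 on the vertical axis, both logarithmic, with the line of equality. At ZT9 the antenna genes LHCB2.3 (2.56% and 10.6%), LHCB2.2 (6.93% and 25.4%) and LHCB2.1 (6.69% and 23.7%) lie farthest above the line, and at ZT24 LHCB1.4 (72.2% and 36.0%) lies below it.

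FNR2 had the opposite course. It stood at 383, 514 and 506 CPM at ZT4 in SOB3-D, rose to the ZT9 values above (log2 difference 1.07, adjusted p = 2.57e-05 by limma) and fell to ZT24 by 2.94 on the log2 scale. In sob3-6 it stood at 293, 321 and 482 CPM at ZT4 and rose by 0.95 on the log2 scale (adjusted p = 0.000140 by limma), and it was the single member called higher at ZT9 than at ZT4 in each genotype. FNR1, its paralog, stood at 546, 633 and 606 CPM at ZT4, 671, 615 and 724 CPM at ZT9 and 343, 333 and 350 CPM at ZT24 in SOB3-D. Of the photosystem I subunits, PSAD2 fell to 33.8% of its ZT4 mean at ZT9 in SOB3-D and to 56.9% in sob3-6, and PSAH2 fell by 1.1 and 0.82 on the log2 scale.

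Whether the genotype difference itself changed with time was tested in 1 fit of all 18 libraries. Between ZT4 and ZT9 it grew for 7 members (LHCB1.4, LHCB2.1, LHCB2.2, LHCB2.3, LHCB3, LHCB4.2 and PSAD2) and shrank for none, beside 1.46% of all genes called (1.04% higher and 0.418% lower), and the shift was 2.05 on the log2 scale for LHCB2.3 (SE 0.16, adjusted p = 3.26e-06 by limma). The count was 11 with the replicate block, beside 3.05% of all genes (1.91% higher and 1.14% lower), and also 11 without sob3-6 ZT4 replicate 3. Between ZT9 and ZT24 the difference fell for 19 members, 13 of them antenna genes, and rose for 2 (PSBS and FNR2), beside 4.02% of all genes (2.54% higher and 1.48% lower), and with the block for 27 and 6 members, beside 7% of all genes (4.26% higher and 2.74% lower). LHCB2.3 (-2.22, SE 0.16), LHCB2.2 (-2.14, SE 0.13), LHCB4.2 (-2.04, SE 0.14), LHCB2.1 (-2.02, SE 0.14) and LHCB1.4 (-2.02, SE 0.23) shifted most.

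Between ZT4 and ZT24 the genotype difference shifted for 4 members, beside 2.95% of all genes (2.02% higher and 0.929% lower). It rose for LHCB7, PSBS and FNR2 and fell for LHCB1.4, by 0.99 on the log2 scale. This count was 9 with the block, beside 5.71% of all genes (3.66% higher and 2.05% lower), 0 without SOB3-D ZT4 replicate 3, 1 without SOB3-D ZT24 replicate 2 or 3, 1 without sob3-6 ZT4 replicate 1, and 1 without sob3-6 ZT24 replicate 1 or 2. It was 2 without SOB3-D ZT4 replicate 2, SOB3-D ZT9 replicate 2 or SOB3-D ZT24 replicate 1.

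Regulators of photosynthesis genes were followed in a list of 13 loci, which holds the GOLDEN2-LIKE, HY5, GATA, PIF and morning clock factors and GUN4. At ZT9, 7 of the 13 were higher in sob3-6 and 0 lower by limma, beside 6.00% and 4.03% of all genes, and at ZT4, 0 were higher and 5 lower, beside 4.29% and 2.46%. GLK2, an activator of antenna and chlorophyll synthesis genes, stood at 7.93, 8.84 and 9.53 CPM in SOB3-D and at 21, 22.6 and 19.0 CPM in sob3-6 at ZT9 (log2 difference 1.2, SE 0.13, adjusted p = 0.00117 by limma), and GLK1 was higher by 0.79 (SE 0.11). At ZT4 GLK2 went the other way, at 365, 317 and 336 CPM against 188, 166 and 226 CPM (log2 difference -0.82, SE 0.13, adjusted p = 0.00666 by limma), and at ZT24 it was again lower in sob3-6 (-0.56, SE 0.08). GLK1 did not share these falls. At ZT4 GLK1 stood at 163, 162 and 189 CPM in SOB3-D against 162, 190 and 195 CPM in sob3-6, and the groups overlapped. At ZT24 it stood at 71.19, 72.34 and 72.15 CPM in SOB3-D and higher in sob3-6, at 85.62, 82.82 and 82.15 CPM. At ZT4, 17 of 21 antenna genes had a log2 difference above 0 and 0 were called higher (antenna median 0.13, beside 0.04 for all genes). Any link between these regulators and the antenna was not tested.

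The GATA factor gene GNC, which promotes greening, was lower in sob3-6 at ZT4 (log2 difference -0.61, SE 0.12) and higher at ZT9 (1.11, SE 0.16) and ZT24 (0.68, SE 0.09), and its homolog CGA1 was lower at ZT4 (-1.31, SE 0.21) and higher at ZT9 (0.88, SE 0.19). At ZT24 CGA1 was not higher, at 7.95, 3.90 and 4.82 CPM in SOB3-D against 2.57, 2.59 and 4.36 CPM in sob3-6, and the groups overlapped. PIF4, a light-repressed growth promoter that is known to repress greening in seedlings, stood at 50.7, 60.2 and 53.2 CPM in SOB3-D and at 158, 167 and 143 CPM in sob3-6 at ZT9 (log2 difference 1.51, SE 0.10, adjusted p = 0.000119 by limma). GUN4, which activates magnesium chelatase in chlorophyll synthesis, stood at 22.4, 23.0 and 23.1 CPM against 48.2, 57.9 and 43.8 CPM (log2 difference 1.11, SE 0.12). CCA1, a morning clock factor that binds LHCB1 promoters, was lower in sob3-6 at ZT4, at 79.3, 50.8 and 69.0 CPM against 39.4, 34.7 and 34.5 CPM (log2 difference -0.84, SE 0.16, adjusted p = 0.0140 by limma). At ZT24 the CCA1 groups overlapped, at 306, 240 and 228 CPM in SOB3-D against 308, 294 and 278 CPM in sob3-6. LHY, the other morning clock factor of the list, went the other way at ZT4 without a call. It stood at 20.26, 11.92 and 20.29 CPM in SOB3-D against 29.11, 21.99 and 20.56 CPM in sob3-6.

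Genes for thylakoid import, assembly and protection were mostly not called. Of 21 such genes 0 were higher and 3 lower in sob3-6 at ZT9 by limma, beside 6.00% and 4.03% of all genes, with a median log2 difference of -0.27. At ZT4, 0 were higher and 2 lower, beside 4.29% and 2.46%, and at ZT24, 1 was higher and 1 lower, beside 4.91% and 1.85%. PSB28, an assembly factor of photosystem II, stood at 124, 124 and 142 CPM in SOB3-D and at 48.2, 64.1 and 68.5 CPM in sob3-6 at ZT9, a fall of 1.12 on the log2 scale (SE 0.13, 2.17-fold, adjusted p = 0.00181 by limma). HCF136, another assembly factor, fell by 0.43 (SE 0.09) and PSB33 by 0.57 (SE 0.12) on the log2 scale.

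Cell type markers were read beside these results. All 15 markers of mesophyll, root, epidermis, guard cells and vascular tissue were detected in every library. The 3 mesophyll markers RBCS1A, CA1 and RCA, which encode stromal enzymes, summed to between 15655 and 19945 CPM in SOB3-D and to between 9949 and 14014 CPM in sob3-6 at ZT9. Of these 2 were called lower (CA1 and RCA) and 0 higher, while 4.03% of all genes were lower and 6.00% higher. The sum of these markers differed in the opposite direction to the antenna sum. At ZT24 the mesophyll markers summed to between 13274 and 14359 CPM in SOB3-D and between 16472 and 18159 CPM in sob3-6, with CA1 called higher. At that time 4.91% of all genes were called higher and 1.85% lower. The 4 epidermis and guard cell markers summed to between 254 and 285 CPM in SOB3-D and between 346 and 403 CPM in sob3-6 at ZT9. ATML1 and PDF1 made up most of that sum and were called higher, and ATML1 was also higher at ZT24. FAMA and MYB60 were not called at ZT9, and for each the groups overlapped. FAMA stood at 16.97, 16 and 12.49 CPM in SOB3-D against 14.18, 14.55 and 18.99 CPM in sob3-6 at ZT9. The 5 root markers summed to between 2965 and 3047 CPM against 1821 to 2140 CPM at ZT9, and PYK10 made up most of that sum. PYK10 stood at 2910, 2954 and 2986 CPM in SOB3-D and at 2058, 1988 and 1780 CPM in sob3-6, and was called lower there and at ZT24. No other root marker was called, and CASP1 stood at 20.9, 19.4 and 33.9 CPM in SOB3-D against 33.4, 25.1 and 28.2 CPM in sob3-6 at ZT9. None of the 3 vascular markers was called. The part of tissue make-up in the antenna result was not tested.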

How the data were processed

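Per the labels and the methods of the study, single-end reads of whole seedlings had been aligned with Bowtie to TAIR10 transcripts, every equally good hit being counted. The signal values deposited by the authors, named CPM, are reads per transcript scaled to the mapped reads of each library, in 3 tables of 6 libraries. At a tolerance of 0.01, 100% of the values came out as whole reads. Use of strand in counting is not given in the sources used here. P-values of the fits without a block measure the spread between replicate sets grown on separate plates. Those of the blocked fits measure the spread that remains once replicate number is taken out. In the blocked fit of the interactions, replicate number was taken out separately within each time point.

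The members and gene lists were chosen with earlier results of these data known. Members and lists were matched by locus, with 1 transcript per gene (the highest mean CPM). Transcripts averaging 0.5 CPM or more were fitted on the log2(CPM + 0.5) scale with limma 3.58.1 in R 4.3.3 (two-sided, variance trend, Benjamini-Hochberg over all transcripts, called at an adjusted p under 0.05). Genotypes were compared within the 6 libraries of a time point, and times and interactions in 1 fit of 18 libraries, and the share called is over nuclear genes. Fits were tested on simulated data. The fits were repeated with a pseudocount of 0.1 or 1.0 CPM, without a filter, with a minimum of 5 CPM, with TMM rescaling, with edgeR 4.0.16 and DESeq2 1.42.0 on the recovered reads, in 1 fit of all libraries, for any transcript of a member, without each library, and with a replicate block. The block was replicate number for genotypes and times, and replicate number within each time point for interactions.

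The methods state that genotypes of a replicate set shared plates, so the numbers pair them. Deviations of same-numbered libraries correlated at 0.13 to 0.35 at ZT4, 0.20 to 0.34 at ZT9 and 0.24 to 0.41 at ZT24, and those of other pairs at -0.31 to 0.17. Library values are given for members called between genotypes (at most 12 by adjusted p), the 3 most abundant and the 3 most time-variable members of each class and the paralogs compared. The list genes named are those with the smallest adjusted p, at most 10, and LHY, which is set beside CCA1. Promoters were read from RefSeq's TAIR10.1 for all 53 members. Columns of other samples numbered 0.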

Additional observations from a re-analysis of the deposited data

Results flagged for a closer look

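For the members below, the genotype difference (sob3-6 minus SOB3-D, log2 scale) differed between time points by the interaction term in limma, at an adjusted p under 0.05 over all transcripts, and each value in parentheses is that shift.

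From ZT4 to ZT9 it rose for LHCB1.4 (1.03), LHCB2.1 (1.82), LHCB2.2 (1.87), LHCB2.3 (2.05), LHCB3 (1.05), LHCB4.2 (1.54) and PSAD2 (0.76).

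From ZT9 to ZT24 it fell for LHCA1 (-0.96), LHCA2 (-0.76), LHCA3 (-0.72), LHCB1.1 (-0.92), LHCB1.4 (-2.02), LHCB1.5 (-1.34), LHCB2.1 (-2.02), LHCB2.2 (-2.14), LHCB2.3 (-2.22), LHCB3 (-1.43), LHCB4.1 (-0.62), LHCB4.2 (-2.04), LHCB6 (-0.87), PSAD2 (-1.03), PSAE1 (-0.60), PSAE2 (-0.69), PSAO (-0.64), PSBQ2 (-0.79) and PETE1 (-0.90). It rose for PSBS (0.60) and FNR2 (0.99) over the same interval.

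From ZT4 to ZT24 it rose for LHCB7 (0.89), PSBS (0.60) and FNR2 (0.86), and fell for LHCB1.4 (-0.99).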

How the results depend on the processing

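Of the 57 genotype and interaction values called for members, none reversed direction under the alternatives run, and single time contrasts and members not called were not followed through them. At ZT4 the count of 1 became 3 with DESeq2, 3 with edgeR's exact test, 6 in 1 fit of 18 libraries and 2 with the replicate block. At ZT24 the count of 2 became 4 with a minimum of 5 CPM, 4 with edgeR's quasi-likelihood test, 7 with DESeq2 (1 higher), 7 with the exact test and 12 with the block. At ZT9 the count of 22 ran from 15 without a filter to 33 with the block. The growth from ZT4 to ZT9 (7 members) became 11 with a minimum of 5 CPM and 11 with the block, the shift from ZT9 to ZT24 (21) became 13 with TMM rescaling and 33 with the block, and the shift from ZT4 to ZT24 (4) became 1 without a filter, 0 with TMM, 1 with the quasi-likelihood test and 9 with the block. The causes were not tested. Shares of all genes were not counted for these alternatives, apart from the block. With each library left out, counts ran from 0 to 3 at ZT4, 9 to 20 at ZT9 and 2 to 4 at ZT24. They ran from 35 to 41, 26 to 33 and 27 to 39 for ZT9 against ZT4, ZT24 against ZT9 and ZT24 against ZT4 in SOB3-D, and from 19 to 34, 16 to 23 and 32 to 41 in sob3-6. For the shifts in genotype difference they ran from 6 to 11, 15 to 27 and 0 to 4. The replicate block lost none of the members called without it. The antenna sum's log2 ratio at ZT24 was -0.122 without members that share read-length stretches, against -0.245. Depth limits the rarest member, LHCB4.3, at 4.50 CPM on average, where 1 read is worth between 0.0903 and 0.166 CPM.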
